A study of Danio rerio with 6 samples.

Results

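The enzymes that interconvert glutamine, glutamate, aspartate and asparagine were examined as a list of 10 zebrafish genes: glud1a, glud1b, glula, glulb, glsa, glsb, got1, got2a, got2b and asns. Of these, 9 were among the 10232 genes of the deposited table, while glsb was not listed there and was not analysed here. The rule names the genes and uses no measured value, but the list was drawn up with earlier results of these data known. Libraries were made from GFP-positive endothelial cells (ECs) sorted out of the dissected caudal haematopoietic tissue (CHT), the tail niche in which haematopoietic stem and progenitor cells expand, at 36 hours post fertilization (hpf), with about 5000 cells in each sample. The 3 control samples carried flk1:GFP;UAS:DN-bmal1a and the 3 DN-bmal1a samples carried flk1:GFP;flk1:GAL4;UAS:DN-bmal1a, so that all 6 held the reporter and the UAS transgene, and the driver was the genetic difference. flk1 is an older name of kdrl, a VEGF receptor gene of ECs. GAL4 made under its promoter switches on the UAS transgene, a dominant-negative form of the clock activator Bmal1a, and the same promoter marked the cells that were sorted. The comparison asks which EC transcripts differ when the driver switches on this transgene in the endothelium. No sample carried the driver without the transgene, so that effects of GAL4 itself and of disturbed Bmal1a function cannot be told apart.

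Glutamine carries nitrogen between tissues and supplies it for nucleotide synthesis, and its carbon can enter the tricarboxylic acid cycle. Glutamine synthetase (glula, glulb) builds it from glutamate and ammonia, and glutaminase (glsa) hydrolyses it again. Glutamate dehydrogenase (glud1a, glud1b) converts glutamate to 2-oxoglutarate in mitochondria, aspartate aminotransferases (got1 in the cytosol, got2a and got2b in mitochondria) exchange amino groups between glutamate and oxaloacetate, and asparagine synthetase (asns) uses glutamine to make asparagine.

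Each library held between 26161915 and 55004237 recovered reads, the lowest number in DN-bmal1a replicate 2, in which 1760 genes had no reads against 34 to 865 in the other 5 libraries. Values are given as reads per 1000000 of an effective library size (CPM). They are not corrected for gene length, so that levels are compared between libraries and not between genes. Counts of arntl1a, the older symbol of bmal1a, do not separate the transgene from the endogenous gene. All 3 libraries with the driver (22.1 to 55.5 CPM) lay above all 3 without it (3.28 to 20.6 CPM), a pattern shared by 7.00% of all genes. The limma adjusted p of arntl1a, from the test described below, was 0.402. The sorted cell type was checked by its markers, of which 18 of 22 were listed, with kdrl and cdh5 present in every library, and their summed level was 11280 to 13176 CPM in control and 6735 to 8726 CPM in DN-bmal1a libraries. Markers of other cells were present too. Those of erythroid cells (11 of 14 listed) summed to 1009 to 3271 CPM in control and 4147 to 6073 CPM in DN-bmal1a libraries, those of the epidermis (10 of 10 listed) to 3817 to 3833 and 2647 to 3322 CPM, and those of myeloid cells (7 of 10 listed) to 6465 to 11128 and 6248 to 9399 CPM. Globin genes made up most of the erythroid sum. The keratin gene krt8 made up most of the epidermis sum, at 2580 to 3279 CPM in control and 1806 to 2923 CPM in DN-bmal1a libraries, with overlap. Of the 11 erythroid genes, 9 had a log2 fold change above 0 and 2 below, gata1a and sptb. gata1a was lower without overlap, at 4.13 to 8.89 CPM in control and 0 to 1.83 CPM in DN-bmal1a libraries. Muscle markers (11 of 15 listed) summed to 1332, 1925 and 4753 CPM in control replicates 1 to 3, against 967, 936 and 4224 CPM in DN-bmal1a replicates 1 to 3, so that replicate 3 stood apart in both groups. Neural markers (6 of 9 listed) summed to 80.5 to 127 CPM in control and 51.2 to 60.0 CPM in DN-bmal1a libraries, without overlap. The sums of the remaining 3 marker lists (neural crest, notochord, and liver and yolk) overlapped between the groups. The part of these other cells in the levels of the enzyme genes was not tested. In bulk samples, fewer cells of a type and less RNA per cell cannot be told apart.

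None of the 9 enzyme genes had an adjusted p under 0.05 with a fold change of at least 2 in limma's moderated test on log2(CPM + 1), with Benjamini-Hochberg adjustment over all genes, where 0.00977% of all genes did. The number was also 0 in edgeR's quasi-likelihood test, but that test called 0 of all 10232 genes and so could call none of the 9. It was 0 too in edgeR's exact test and in DESeq2, which called 38 and 187 of all 10232 genes. An unadjusted limma p under 0.05 was seen for 1 of the 9, glud1a, which was lower in DN-bmal1a, against 8.12% of all genes with a lower and 3.10% with a higher level. All DN-bmal1a values lay below all control values for 2 of the 9, glud1a and asns, against 10.7% of all genes, and above all control values for 0, against 7.00%. The log2 fold change was below 0 for 6 of the 9 and above 0 for 3, compared with 58.1% and 41.9% of all genes. The median log2 fold change was -0.27 over the 9 and -0.13 over all genes.

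**Figure D1:**
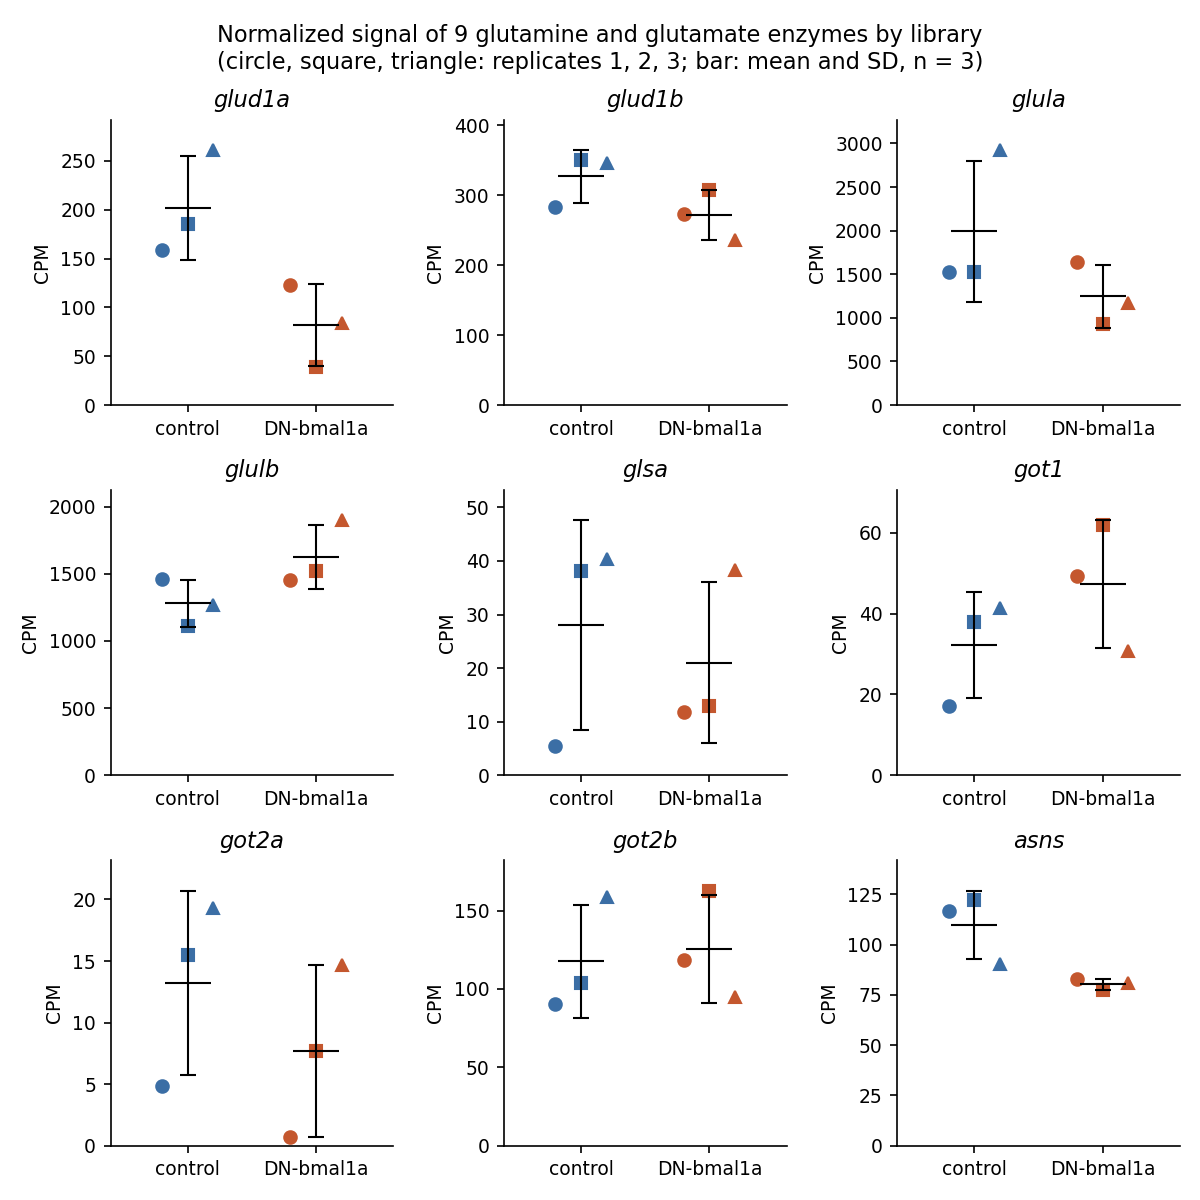
Normalized signal (CPM, vertical axes from 0) of each of the 9 enzyme genes in the 3 control and 3 DN-bmal1a libraries, with a circle, square and triangle for replicates 1, 2 and 3 and bars for the mean and SD (n = 3). The groups are separate for glud1a, with the lowest control at 159 and the highest DN-bmal1a library at 122 CPM, and for asns, and they overlap for the other genes.

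The glutamate dehydrogenase genes, glud1a and glud1b, differed in how far apart the groups lay. For glud1a, control replicates 1 to 3 measured 159, 186 and 261 CPM, against 122, 38.7 and 83.8 CPM for DN-bmal1a replicates 1 to 3. The lowest value came from the library with the fewest reads, DN-bmal1a replicate 2, where it rested on 1056 reads, and the groups did not overlap. On the log2 scale glud1a differed by -1.41 (95% interval -2.28 to -0.54, limma adjusted p = 0.277), and by -0.96 without DN-bmal1a replicate 2. The study's own edgeR analysis called glud1a lower in these same libraries, so that its values here are not independent of that choice. The study also reported lower glud1a by qPCR of tail ECs and by in situ hybridization, which were not examined here. For glud1b, control libraries measured 284, 351 and 346 CPM, against 273, 308 and 236 CPM with DN-bmal1a. DN-bmal1a replicate 2, the lowest library for glud1a, was the highest of its group for glud1b and lay between the controls. The log2 fold change of glud1b was -0.27 (95% interval -0.67 to 0.14, limma adjusted p = 0.611).

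The ratio of both dehydrogenase genes within a library does not depend on how the libraries are scaled. Of their joint CPM, glud1a made up 35.9%, 34.6% and 43.0% in control replicates 1 to 3, against 31.0%, 11.2% and 26.2% in DN-bmal1a replicates 1 to 3. Each DN-bmal1a share was thus below each control share, by the most in replicate 2. The log2 ratio of glud1a to glud1b averaged -0.72 ± 0.27 (SD, n = 3) for control and -1.86 ± 0.96 (SD, n = 3) for DN-bmal1a libraries. The difference of -1.15 had a standard error of 0.58 (two-sided exact permutation test, p = 0.1, adjusted p = 0.25 over 5 ratios), and 0.1 is the smallest p that 3 libraries against 3 allow. Without DN-bmal1a replicate 2 it was -0.60. The joint CPM of glud1a and glud1b were 443, 537 and 607 for control libraries, against 395, 347 and 319 with DN-bmal1a, also without overlap (two-sided exact permutation test, p = 0.1). Unlike the ratio, this sum depends on how the libraries are scaled. It differed by -0.57 on the log2 scale, while the mean log2(CPM + 1) of the endothelial markers differed by -0.70. The sum relative to these markers was not tested.

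The glutamine synthetase genes lay on different sides of 0. For glula, control libraries measured 1532, 1522 and 2923 CPM, against 1644, 935 and 1169 CPM with DN-bmal1a. Control replicate 3 was 1.92 times the lowest control, and DN-bmal1a replicate 1 lay above control replicates 1 and 2, so that the groups overlapped. On the log2 scale glula differed by -0.64 (95% interval -1.29 to 0.0054, limma adjusted p = 0.451), and -0.33 without control replicate 3. For glulb, control libraries measured 1461, 1108 and 1268 CPM, against 1452, 1523 and 1896 CPM with DN-bmal1a. DN-bmal1a replicates 2 and 3 lay above all controls and replicate 1 just below control replicate 1. The log2 fold change of glulb was 0.34 (95% interval -0.045 to 0.73, limma adjusted p = 0.498), and between 0.23 and 0.44 with any 1 library left out.

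The joint CPM of glula and glulb averaged 3271 ± 817 (SD, n = 3) for control and 2873 ± 360 (SD, n = 3) for DN-bmal1a libraries, with overlap (two-sided exact permutation test, p = 0.6). The study names a further paralogue, glulc, which was not listed in the deposited table and is not part of this sum. glula made up 51.2%, 57.9% and 69.8% of them in control replicates 1 to 3, against 53.1%, 38.1% and 38.1% in DN-bmal1a replicates 1 to 3. DN-bmal1a replicates 2 and 3 were below all controls, while replicate 1 lay among them. The log2 ratio of glula to glulb differed by -0.98 (standard error 0.44, two-sided exact permutation test, p = 0.2, adjusted p = 0.25). How reads that both copies of a pair could give were counted is not given in the sources used here, so that the split between copies is less certain than their sum.

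Synthetase was also set against dehydrogenase, as the log2 ratio of the joint CPM of glula and glulb to those of glud1a and glud1b. It was 2.75, 2.29 and 2.79 in control replicates 1 to 3, against 2.97, 2.82 and 3.26 in DN-bmal1a replicates 1 to 3. The groups did not overlap, although control replicate 3 and DN-bmal1a replicate 2 were closer to each other than the SD of either group. The difference was 0.41 (standard error 0.21, two-sided exact permutation test, p = 0.1, adjusted p = 0.25), and 0.25 without control replicate 2. On the same scale the dehydrogenase sum differed by -0.57 and the synthetase sum by -0.17. Both of these differences, unlike the ratio, depend on how the libraries are scaled. The mean log2(CPM + 1) of the endothelial markers differed by -0.70. Which of the sums moved therefore cannot be told from the ratio.

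**Figure D2:**
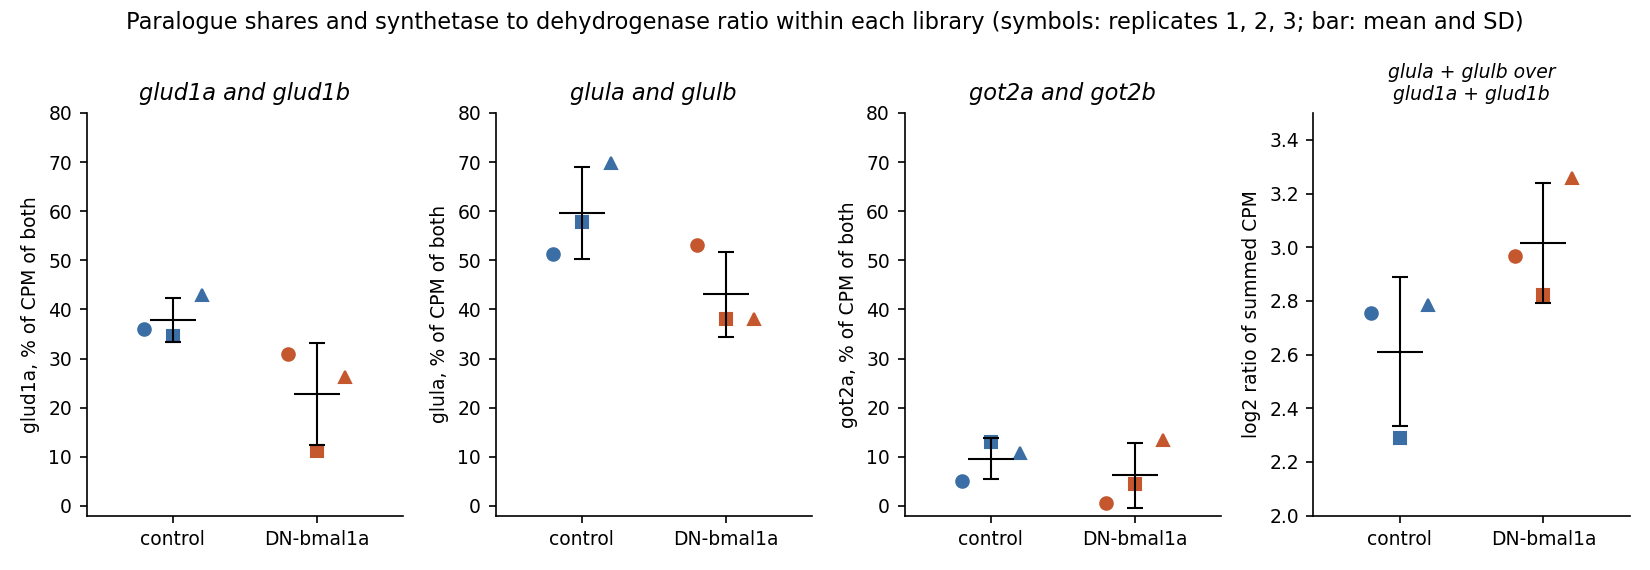
Share of the first-named gene in the joint CPM of both genes (percent) for glud1a and glud1b, glula and glulb, and got2a and got2b. At the right is the log2 ratio of the summed CPM of glula and glulb to those of glud1a and glud1b. Its axis does not start at 0. Points are libraries and bars the mean and SD (n = 3), and the glud1a share lies between 34.6% and 43.0% for control and between 11.2% and 31.0% for DN-bmal1a libraries.

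Glutaminase was represented by glsa, for which control libraries measured 5.43, 38.2 and 40.3 CPM, against 11.8, 12.9 and 38.3 CPM with DN-bmal1a. Both groups held libraries near the top and libraries several-fold lower, and they overlapped. Its log2 fold change of -0.19 had a 95% interval from -1.97 to 1.58 (limma adjusted p = 0.941). It was -1.07 without control replicate 1 and 0.27 without control replicate 3, so that no direction can be given.

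The aspartate aminotransferases, which with malate dehydrogenase form the shuttle that carries reducing equivalents into mitochondria, had overlapping groups throughout. For the cytosolic got1, control libraries measured 17.2, 38.0 and 41.4 CPM, against 49.2, 62.0 and 30.7 CPM with DN-bmal1a. DN-bmal1a replicates 1 and 2 lay above all controls, and replicate 3 lay between them. Its log2 fold change was 0.58 (95% interval -0.40 to 1.56, limma adjusted p = 0.655), and 0.19 without control replicate 1. For the mitochondrial got2b, control libraries measured 90.7, 104 and 159 CPM, against 119, 163 and 94.6 CPM with DN-bmal1a, which covered the same range. Its log2 fold change of 0.097 (95% interval -0.54 to 0.74, limma adjusted p = 0.916) turned to -0.068 without control replicate 1 and to -0.11 without DN-bmal1a replicate 2.

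The other mitochondrial gene, got2a, had the fewest reads of the 9, from 32 in DN-bmal1a replicate 1 to 971 in control replicate 3. Control libraries measured 4.83, 15.5 and 19.3 CPM, against 0.74, 7.66 and 14.7 CPM with DN-bmal1a. The highest DN-bmal1a library was 19.8 times the lowest, and the groups overlapped. Its log2 fold change was -1.01 (95% interval -3.13 to 1.1, limma adjusted p = 0.714), and -0.099 without DN-bmal1a replicate 1. got2a made up 0.62% to 13.4% of the joint CPM of got2a and got2b, which averaged 131 ± 42.5 (SD, n = 3) for control and 133 ± 32.7 (SD, n = 3) for DN-bmal1a libraries. The log2 ratio of got2a to got2b differed by -1.11 (standard error 1.08, two-sided exact permutation test, p = 0.5, adjusted p = 0.5), and by -0.22 without DN-bmal1a replicate 1 or -1.97 without DN-bmal1a replicate 3. That of got1 to the joint CPM differed by 0.54 (standard error 0.28, two-sided exact permutation test, p = 0.2, adjusted p = 0.25), and both overlapped.

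asns, whose product transfers the amide nitrogen of glutamine to aspartate, was the other gene without overlap. Control libraries measured 117, 122 and 90.5 CPM, against 82.7, 77.2 and 80.8 CPM with DN-bmal1a. The DN-bmal1a values lay within 1.07-fold of each other, and the closest control was replicate 3. Its log2 fold change was -0.44 (95% interval -0.94 to 0.062, limma adjusted p = 0.503), and between -0.57 and -0.35 with any 1 library left out.

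**Figure D3:**
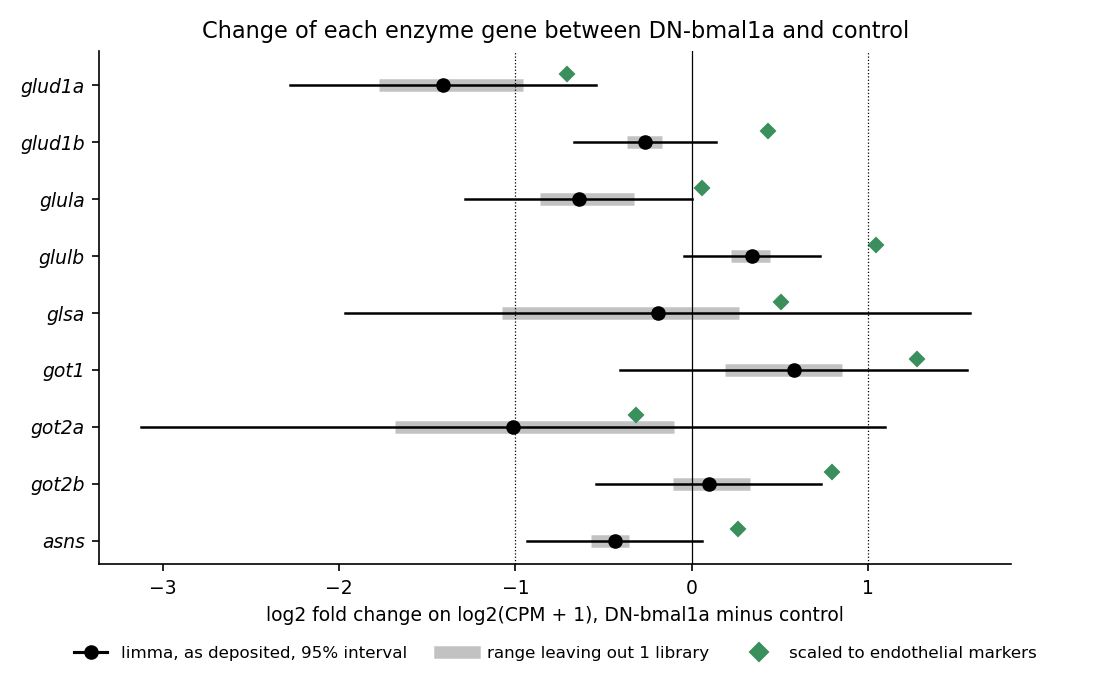
Log2 fold change of each enzyme gene (horizontal axis, DN-bmal1a minus control on log2(CPM + 1)) as a black point with its limma 95% interval, the range of the fits that each left out 1 library as a grey bar, and the value after scaling to the endothelial markers as a green diamond, with dotted lines at a fold change of 2. The interval of glud1a, -2.28 to -0.54, is the only one of the 9 that does not include 0.

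The precision differed between the enzyme genes. The 95% intervals of glud1b, glulb, got2b and asns lay within a fold change of 2 in either direction, while those of glsa and got2a reached past it in both. Among the 6611 genes with a mean of at least 10 CPM, the median SD of log2(CPM + 1) between replicates was 0.33 in control and 0.44 in DN-bmal1a libraries. Of the 9 enzyme genes, 6 exceeded the former and 4 the latter, and glud1a, glsa, got1 and got2a exceeded both. Control replicate 1 was the lowest control for glud1a, glud1b, glsa, got1, got2a and got2b.

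The endothelial markers had the same order of libraries as glud1a, from control replicate 3 at the top to DN-bmal1a replicate 2 at the bottom. Their mean log2(CPM + 1) was 8.84, 9.01 and 9.12 for control replicates 1 to 3, against 8.54, 8.03 and 8.29 for DN-bmal1a replicates 1 to 3, a difference of -0.70 without overlap (two-sided exact permutation test, p = 0.1). Of the 18 markers, 17 had a log2 fold change below 0, against 58.1% of all genes, and 8 were lower without overlap, against 10.7%. kdrl, whose promoter drove both the reporter and GAL4, was 1 of these 8, with 911 to 1289 CPM in control and 478 to 620 CPM in DN-bmal1a libraries. The genes that the study reported as lower in these same libraries include the markers stab1, stab2 and flt4. The marker mean, and the scaling built on it, are therefore not independent of that report.

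When each library was shifted by its endothelial marker mean, a scaling chosen after the values had been seen, glud1a stood at -1.52, -1.47 and -1.09 relative to the markers (log2) in control replicates 1 to 3, against -1.60, -2.72 and -1.89 in DN-bmal1a replicates 1 to 3. The groups still did not overlap, with control replicate 1 and DN-bmal1a replicate 1 close together, and the log2 fold change was -0.71 (limma adjusted p = 0.178). On this scale glud1a was the only one of the 9 with all DN-bmal1a values below all controls, against 2.52% of all genes, whereas glud1b, glulb, got1 and got2b had all of them above, against 29.9% of all genes. The log2 fold change was 1.04 for glulb (limma adjusted p = 0.0525) and 1.28 for got1 (limma adjusted p = 0.101), and those of asns (0.26) and glula (0.061) were above 0. The shift moved the all-gene median of the log2 fold change from -0.13 to 0.57, and these values are to be read against it. The share of lower genes among those at an unadjusted limma p under 0.05 was 72.4% as deposited, 56.4% after quantile normalization and 5.53% after the shift. The part of endothelial RNA content in the level of glud1a was not tested.

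**Figure D4:**
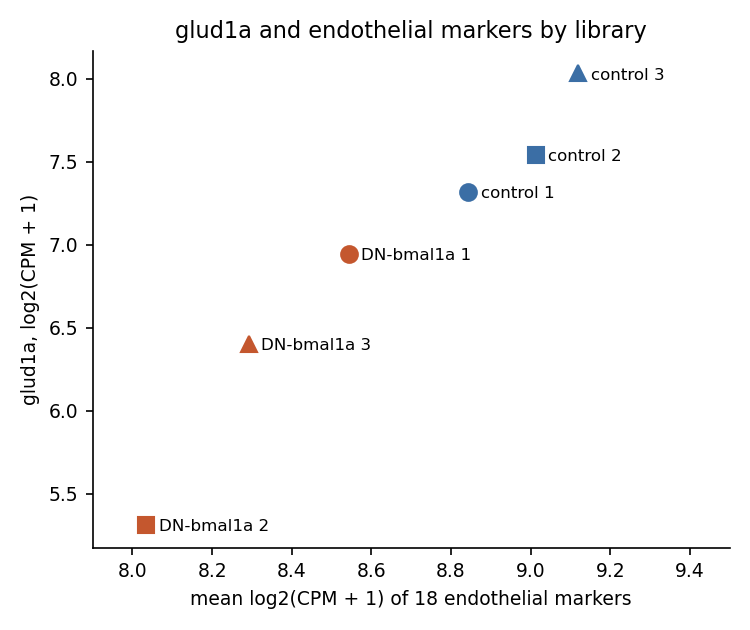
glud1a as log2(CPM + 1) (vertical axis) against the mean log2(CPM + 1) of 18 endothelial markers (horizontal axis), 1 point per library, labelled by group and replicate, on axes that do not start at 0. The markers lie at 8.84 to 9.12 for control and at 8.03 to 8.54 for DN-bmal1a libraries, and the libraries have the same order on both axes.

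Among 6610 other genes with a mean of at least 10 CPM, the pattern over the 6 libraries was closest to that of glud1a for pvrl1b, sox11b and f3b, with root mean square differences of 0.15, 0.17 and 0.18 on centred log2(CPM + 1). pvrl1b encodes a nectin adhesion molecule, sox11b a transcription factor of the SoxC group and f3b a tissue factor, the trigger of coagulation. Like glud1a, each of them had its highest value in control replicate 3 and its lowest in DN-bmal1a replicate 2. This largely follows from picking them by likeness over these same 6 libraries. Of the other enzyme genes, glula was the closest to glud1a, at 0.49 (rank 319), and glud1b was at 0.81.

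Neighbouring enzymes were described by 4 lists of pathway genes, with 88 different genes in the table. limma called 0 of them, with 5 lower and 1 higher at an unadjusted p under 0.05, next to 8.12% and 3.10% of all genes, and edgeR's quasi-likelihood test also called 0. The edgeR exact test and DESeq2 called 1 of the 88 each, me3, next to 38 and 187 of all 10232 genes. The groups did not overlap for 7 lower (7.95%) and 5 higher (5.68%) of the 88, next to the 10.7% and 7.00% of all genes given above.

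The 25 other enzymes of glutamine, glutamate and proline metabolism had a median log2 fold change of -0.19. The lowest was that of aldh18a1, which starts proline synthesis from glutamate, at -2.06 (limma adjusted p = 0.519). It had 19.6 to 26.5 CPM in control libraries, against 32.2, 4.88 and 0.089 CPM in DN-bmal1a replicates 1 to 3, so that replicate 1 lay above all controls. The value was -0.83 without DN-bmal1a replicate 3, -3.29 without DN-bmal1a replicate 1 and -0.95 in DESeq2, in which gad2 lay below it. Next came gad2, a glutamate decarboxylase that makes the transmitter GABA in neurons, at -1.44 (limma adjusted p = 0.388), with 0.70 to 2.62 CPM in control libraries and 2, 0 and 0 reads in the DN-bmal1a libraries. The highest value, 0.54, belonged to gpt2, an alanine aminotransferase (limma adjusted p = 0.688), for which control libraries measured 16.0, 16.7 and 14.6 CPM, against 28.5, 24.1 and 18.3 CPM with DN-bmal1a, without overlap. asrgl1, an asparaginase, had 0.50 with at most 6.93 CPM in any library, and its sign turned when 1 library was left out.

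The 13 enzymes that use glutamine as an amide donor or charge the related tRNAs had a median log2 fold change of 0.25, and of 0.089 without control replicate 3. pfas, an enzyme of purine synthesis, had the highest, 1.62 (limma adjusted p = 0.489), with 2.99 to 24.6 CPM in control libraries and 16.6 to 80.7 CPM with DN-bmal1a, which overlapped. It was 0.80 without control replicate 1, 1.08 without DN-bmal1a replicate 2 and 0.64 with array weights. ppat, which performs the first committed step of that pathway, had 0.44, also with overlap. The lowest was nadsyn1, which completes NAD synthesis with nitrogen from glutamine, at -2.11 (limma adjusted p = 0.357), from 3.32 to 9.37 CPM in control libraries and 0, 0 and 1.94 CPM with DN-bmal1a. gatb, a subunit of the mitochondrial glutamyl-tRNA amidotransferase, had -0.51 with overlap, and its sign differed between tests.

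A list of 21 genes covered the malate-aspartate and glycerol 3-phosphate shuttles, 2-oxoglutarate and malate metabolism, and pyruvate carboxylase. Its median log2 fold change was 0.023, which turned to -0.086 without control replicate 1. The lowest 2, gpd1a and me3, were separate between the groups, and the study picked both from these same libraries. me3, a mitochondrial malic enzyme that turns malate into pyruvate, had 55.1 to 82.1 CPM in control and 14.6 to 22.4 CPM in DN-bmal1a libraries, a log2 difference of -1.90 (limma adjusted p = 0.178). gpd1a, a cytosolic enzyme of the glycerol 3-phosphate shuttle, had 67.4 to 97.7 CPM in control and 9.53 to 50.9 CPM in DN-bmal1a libraries, a log2 difference of -1.95 (limma adjusted p = 0.268). At the other end were mdh1ab, a cytosolic malate dehydrogenase (1.28, but 0.50 without control replicate 1 and 2.04 without DN-bmal1a replicate 1), and idh3g, a subunit of mitochondrial isocitrate dehydrogenase (0.35, but 0.11 without DN-bmal1a replicate 1), both with overlap.

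asns is a well-known target of ATF4, the transcription factor of the amino acid response in mammals. The 31 genes listed for that response had a median log2 fold change of -0.080, and 2 of them were lower and 3 higher without overlap, next to 10.7% and 7.00% of all genes. The median turned to 0.11 without control replicate 3. Of the Atf4 genes, named after their values were seen, atf4b had 1130 to 1317 CPM in control and 816 to 972 CPM in DN-bmal1a libraries (-0.45, limma adjusted p = 0.352), and atf4a overlapped (0.13). Besides aldh18a1, the lowest was vldlr, a lipoprotein receptor (-1.09, with overlap), which was -0.099 without DN-bmal1a replicate 1 and -2.11 without DN-bmal1a replicate 2. The highest were atf5a, a related factor, with 11.6 to 15.5 CPM in control and 20.8 to 25.4 CPM in DN-bmal1a libraries (0.78, limma adjusted p = 0.564), and sesn2, a stress-induced inhibitor of mTORC1 signalling (0.73, with overlap).

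**Figure D5:**
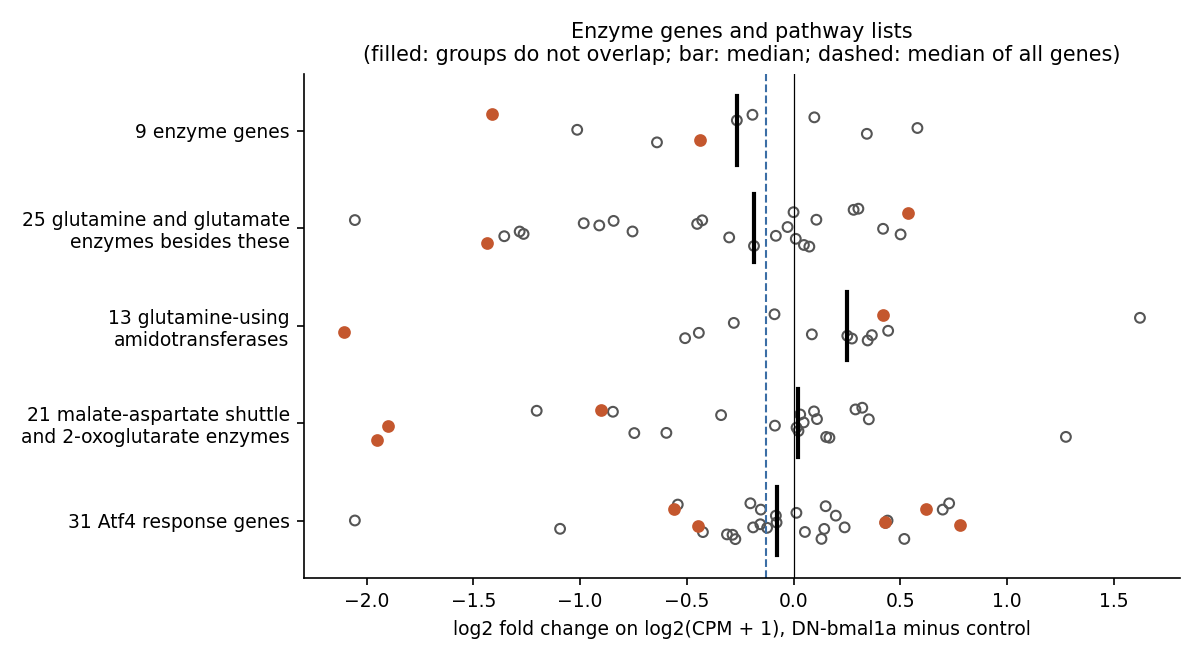
Log2 fold change (horizontal axis, DN-bmal1a minus control on log2(CPM + 1)) of the 9 enzyme genes and of the genes of 4 pathway lists, 1 point per gene, filled where the groups do not overlap. Black bars mark the medians of -0.27, -0.19, 0.25, 0.023 and -0.080 from top to bottom, and the dashed line the median of all genes, -0.13.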

How the data were processed

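Total RNA was extracted from sorted CHT ECs. From it, 3 control and 3 DN-bmal1a mRNA libraries were made with a SMARTer Nextera kit and sequenced. Reads had been mapped with STAR 2.7.0f and counted with HTSeq 0.9.1. The submitters' processing notes name GRCz11 and the study's methods danRer10, so no coordinates are given. The authors deposited normalized signal per gene and library from edgeR (3.38.4 in the notes). Columns summed to 959211 to 1038170, not to 1000000 as in plain CPM. All values above 0 (100%) were whole multiples of a library's step within 0.01 reads, which gave back the reads, and the size of a step was that expected from TMM library sizes. Every gene of the table had reads in 3 or more libraries.

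The enzyme genes and lists were chosen with earlier results of these data known. The main test was limma 3.58.1 in R 4.3.3, with an intensity trend in eBayes, on log2(CPM + 1) of all 10232 genes without a filter, which understates fold changes of low genes. Log2 ratios within libraries, with 1 CPM added, used exact permutation tests. Alternatives were pseudocounts of 0.1 and 10, filters at means of 1 and 10 CPM, other scalings, no trend, array weights, a replicate block, each library left out, and edgeR 4.0.16 and DESeq2 1.42.0 on the recovered reads. The code was tested on simulated data. Each library came from the tails of pooled embryos. The study states in general that experiments were repeated independently. The sources used here do not say whether these replicates came from separate clutches, so p-values measure the spread between these samples. No replicate pair agreed within counting error. Besides the 9, the text names the lowest and highest 2 genes of each pathway list by log2 fold change, the 3 genes closest to glud1a, arntl1a and kdrl. Outside that rule, and after their values were seen, it names nr4a1, cdh5, atf4a, atf4b, ctps1a, mars, slc3a2b, stab1, stab2, flt4, gata1a, sptb and krt8.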

Additional observations from a re-analysis of the deposited data

How the results depend on the processing

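No enzyme gene was called under any setting run, and the adjusted p of glud1a ranged from 0.0844 (DESeq2) to 0.848 (edgeR's quasi-likelihood test with the replicate block). The number of the 9 at an unadjusted limma p under 0.05 depended on the setting. It was 1 in the main test (1148 of all 10232 genes) and 2 with a pseudocount of 10 (1146 genes). With array weights it was 4 (1508 genes), and after scaling to the endothelial markers also 4 (2674 genes). The study's own edgeR analysis called glud1a lower at the same thresholds, with a smaller p. No setting run here reproduced that call, so 0.0844 is the lowest value among these settings only. The log2 fold change of glud1a in edgeR's quasi-likelihood test, -1.305, was the same as the study's. The call thus differed by the p and not by the fold change. The study does not name the edgeR test it used. Over all genes, limma as described above called 1 (nr4a1), and the number was 171 after scaling to the endothelial markers, 7 with eBayes without a trend, 187 with DESeq2, 38 with edgeR's exact test, 22 with array weights, and 0 to 1 with 1 library left out. edgeR's quasi-likelihood test called 0 (804 genes had an unadjusted p under 0.05), and 0 with the replicate block (572 genes). In the 4 pathway lists the number was 0, but 3 (ctps1a, mars and slc3a2b) after scaling to the endothelial markers, and 1 (me3) with array weights, edgeR's exact test or DESeq2. Same-numbered libraries did not deviate together over all genes taken as a whole (correlations of -0.074, -0.011 and 0.0025). Muscle markers, however, were highest in replicate 3 of both groups. With the replicate block, limma called 1 gene and gave glud1a -1.41 (adjusted p = 0.406). Scaling to the endothelial markers, chosen after seeing the data, turned glud1b (0.44), glula (0.061), glsa (0.51), asns (0.26) and gatb (0.19) positive. gatb was also positive with a pseudocount of 10 (0.058), edgeR's quasi-likelihood and exact tests (0.39 in both) and DESeq2 (0.42). With 1 library left out, glsa ranged from -1.07 to 0.27, got2b from -0.11 to 0.33, asrgl1 from -0.13 to 1.36 and gatb from -1.45 to 1.03. The cause was not tested. The medians of the shuttle and Atf4 lists turned sign, ranging from -0.086 to 0.070 and from -0.16 to 0.11. No within-library ratio changed direction. Of the 9 enzyme genes, got2a had the fewest reads, and its lowest value rested on 32 reads.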
